A study of Mus musculus with 3 samples.

Results

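The data described here were the RXRα regions at gene promoters in mouse liver. A region was a stretch of 32-bp bins in which the RXRα ChIP signal reached at least 20 times the background, the background being the input signal of the same bin or the genome mean of the input (0.603 reads per bin), whichever was larger. Bins past this level were joined when 200 bp or less lay between them. A region was placed at a promoter when its midpoint lay within 1 kb of the start of a protein-coding gene (GENCODE M1 annotation, mouse build mm9), and 5293 of 42117 regions (12.6%) did so. The members were therefore chosen by their ratio of RXRα over input and by their position, so both are given below only as a description. The count depends on how the background is set: 2608 promoter regions remained when the mean input over about 1 kb was also counted as background, 2262 when 1 read was added to the input of every bin (an alternative chosen after the data were seen), and 8772 were found against the genome mean of the input alone.

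Liver chromatin came from male wild type C57BL/6 mice of 3 months. It was made from whole liver, in which fewer cells of a type and less signal per cell cannot be told apart, and whether animals were pooled is not given in the sources used here. There was 1 library precipitated with an anti-RXRα antibody, 1 of input chromatin and 1 list of peaks from an anti-RARα precipitation. No group had a second library, so no value below has a replicate error, and regions and genes are not replicates. The 95% intervals given (Wilson for a share, Newcombe for a difference of shares) cover counting error only. The RXRα and input tracks held 9999939 and 9999292 reads, each read extended over 5 bins. These totals are nearly equal, and the study reports more uniquely mapped RXRα reads. Whether the tracks were subsampled or scaled before deposit is not given in the sources used here, so read counts below are those of the tracks. The RARα list held 143280 peaks, of which 32946 had a deposited peak score over 20, the strength measure used below.

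RXRα is a nuclear receptor that binds DNA as the partner of other nuclear receptors. With PPARα it acts on genes of fatty acid oxidation, with FXR on bile acid genes, with LXR on sterol genes, with PXR and CAR on drug metabolism genes and with the retinoic acid receptors on retinoid genes. Such pairs recognise a doubled half-site, AGGTCA or a close form, arranged as a direct repeat (DR) or an inverted repeat (IR), and the number after the letters is the count of bases between both half-sites. Promoters in mammals are broadly of 2 kinds, those rich in CpG dinucleotides, which are common at genes used in most tissues, and CpG-poor ones, which are common at tissue-specific genes.

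Some members with a high signal or at well-known liver genes held pairs of half-sites close to the bin of highest ratio. All sequences below were read from the mm9 genome, 5′ to 3′ in the direction of the gene, with the half-sites in capitals. The first set joins 3 of the 10 highest RXRα ratios (Abcb11, the bile salt export pump, Cyp3a25, a drug-metabolising P450 enzyme, and Fcna, a secreted lectin of the complement system) to Hadh, an enzyme of mitochondrial β-oxidation, to the lipoprotein gene Apoc3 and to Fads6, a member of the fatty acid desaturase family. All members shown were chosen for holding such an element, Hadh, Fads6 and Lpin1 also outside the rule for named genes and after the values were seen. Other members with equally high ratios, such as 1700052N19Rik and Nat8b, held no AGGTCA within 100 bp of the highest-ratio bin. Each pair had 1 mismatch to a perfect pair of AGGTCA.
Abcb11, IR1, chr2:69180690-69180770, minus strand: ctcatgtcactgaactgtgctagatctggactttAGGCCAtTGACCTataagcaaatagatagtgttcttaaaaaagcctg
Cyp3a25, DR1, chr5:146821331-146821411, minus strand: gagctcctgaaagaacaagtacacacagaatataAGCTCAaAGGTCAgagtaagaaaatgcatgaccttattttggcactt
Fcna, DR5, chr2:25484447-25484527, minus strand: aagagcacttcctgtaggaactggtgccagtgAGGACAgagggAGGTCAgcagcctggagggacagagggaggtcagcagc
Apoc3, DR1, chr9:46043841-46043921, minus strand: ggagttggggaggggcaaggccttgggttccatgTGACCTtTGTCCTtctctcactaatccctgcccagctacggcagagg
Hadh, DR1, chr3:130974255-130974335, minus strand: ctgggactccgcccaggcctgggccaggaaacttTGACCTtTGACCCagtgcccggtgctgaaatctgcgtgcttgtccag
Fads6, DR1, chr11:115158951-115159031, minus strand: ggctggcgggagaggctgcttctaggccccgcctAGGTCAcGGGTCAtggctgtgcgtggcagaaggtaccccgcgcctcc

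The Abcb11 pair was an inverted repeat with 1 base between the half-sites, the arrangement bound by FXR with RXR, and its centre lay 59 bp upstream of the gene start. The 4 DR1 elements of Cyp3a25, Apoc3, Hadh and Fads6 had the arrangement bound by PPARα with RXR, and the Fcna pair was a DR5.

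The second set shows the spacings of 5 and 4. A DR5 is the classical element of retinoic acid receptors, and Cyp26a1, which degrades retinoic acid, carried one 24 bp upstream of its start with 2 mismatches to a perfect pair. Lpin1, a phosphatidate phosphatase, carried one 275 bp upstream with 1 mismatch. The best pair at Abca1, the cholesterol efflux transporter, was a DR4, the arrangement of LXR with RXR, 59 bp upstream and with 3 mismatches. It was the best of several arrangements searched within 100 bp of the highest-ratio bin. Its half-sites were not among the forms counted below, and how often so loose a match occurs in any such window was not tested.
Cyp26a1, DR5, chr19:37772260-37772288, plus strand: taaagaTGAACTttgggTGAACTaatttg
Lpin1, DR5, chr12:16596811-16596891, minus strand: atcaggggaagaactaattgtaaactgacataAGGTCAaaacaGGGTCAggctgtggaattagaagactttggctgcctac
Abca1, DR4, chr4:53172786-53172866, minus strand: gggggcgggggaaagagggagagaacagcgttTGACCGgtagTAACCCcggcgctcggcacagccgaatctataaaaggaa

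The third set is shown because 60.7% of the members in CpG-rich sequence held another element. Polr2a, the largest subunit of RNA polymerase II, had the highest RARα score of any member, and Rxra is the gene of the precipitated receptor itself. In both, the stretch beside the highest bin held a GC box, GGGCGG, in capitals below, which is bound by Sp-family factors.
Polr2a, GC box, chr11:69572185-69572265, minus strand: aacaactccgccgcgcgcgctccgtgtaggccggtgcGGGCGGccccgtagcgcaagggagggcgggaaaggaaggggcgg
Rxra, GC box, chr2:27531795-27531875, plus strand: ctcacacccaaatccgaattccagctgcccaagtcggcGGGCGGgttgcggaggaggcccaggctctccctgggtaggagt

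The RXRα signal piled up just upstream of the gene start. The median midpoint was 24 bp upstream, the middle 50% of the members lay from 202 bp upstream to 251 bp downstream, and 2873 of 5293 (54.3%) were upstream. The stretch from 200 bp upstream to 100 bp downstream makes up 15.04% of the searched window but held 2215 members (41.8%). The densest 100 bp, directly upstream of the start, held 911 members, against 148 in the outermost 100 bp downstream. The outermost 100 bp upstream held 90 CpG-poor and 11 CpG-rich members (CpG content is defined below). By annotation, the highest-ratio bin lay outside genes in 2546 members, in an intron in 1348, in an untranslated exon part in 1130 and in coding sequence in 269.

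**Figure D1:**
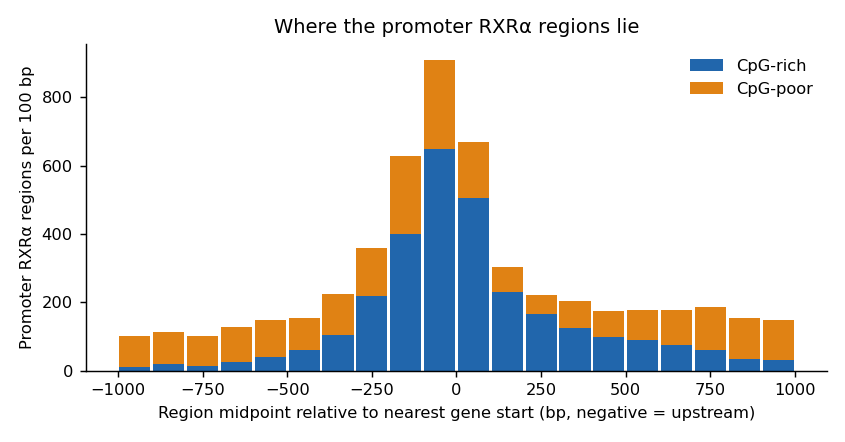
Number of promoter RXRα regions (y axis) in each 100 bp by distance of the region midpoint from the nearest gene start (x axis, bp, negative is upstream), split into CpG-rich (blue) and CpG-poor (orange) sequence. The 911 regions in the 100 bp upstream of the start included 648 CpG-rich ones, while the outermost 100 bp upstream held 11 CpG-rich and 90 CpG-poor ones.

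Averaged over all 4821 starts with a member, the RXRα track rose to 18.6 reads per bin at 64 bp upstream, from 2.31 at the edges of the window 2 kb away. Input at the same starts peaked at 1.88 reads per bin, 96 bp upstream. Starts without a member also had a small RXRα peak at 64 bp upstream, of 3.33 reads per bin against an input of at most 1.04. For these averages 18 starts with over 100 input reads within 1 kb, none of which had a member, were left out.

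**Figure D2:**
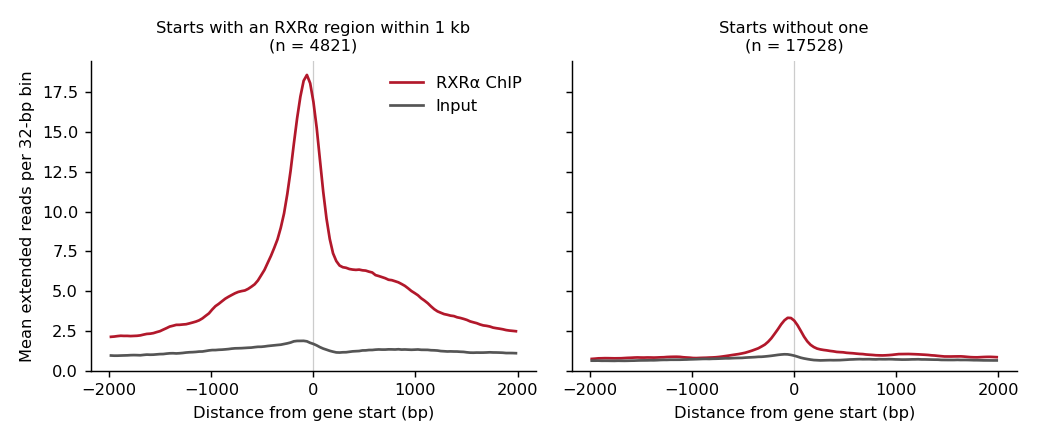
Mean extended reads per 32-bp bin (y axis) in the RXRα library (red) and the input (grey) by distance from the gene start (x axis, bp), for the 4821 starts with a promoter RXRα region (left) and 17528 starts without one (right). The RXRα curve peaks at 18.6 on the left and 3.33 on the right, both 64 bp upstream of the start.

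Most members were narrow. The median width was 96 bp (range 32 to 1216 bp), and 1336 (25.2%) were a single bin. The ratio at the highest bin had a median of 31.5, a range of 20.2 to 353 and quartiles of 24.9 and 44.8, and 205 members reached 100. These ratios rested on few reads, since the highest bin held a median of 23 RXRα reads and no input read in 3771 members (71.2%). The promoter regions were somewhat weaker than those elsewhere: the median ratio was 35.0 in regions 1 to 10 kb from a start and 36.0 in those 10 to 100 kb away, and the share reaching 100 was 3.87% at promoters against 6.57% and 6.70%.

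The members just inside the threshold were at Ces2c, a carboxylesterase, with 5 input reads in its highest bin (ratio 20.2), and at Nags, the enzyme that makes the activator of the urea cycle, Serpind1, a plasma protease inhibitor, and Ap1m1, an adaptor protein, each with 61 RXRα and 3 input reads (ratio 20.3). Just outside, a further 2485 stretches within 1 kb of a start had their highest ratio between 15 and 20. Among the nearest were Pcmtd1, Tmem177, the kinase gene Stk11 and the clock repressor gene Cry1, each with 20 RXRα reads against 1 input read in the highest bin, a ratio of 19.9987 after scaling.

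Of 22367 protein-coding gene starts, 4821 (21.6%) had a member within 1 kb, and 557 members lay within reach of 2 or more starts. As nearest start, 3639 genes had 1 member, 699 had 2, 77 had 3 and 6 had 4 or 5. The largest number, 5, was found at Tm6sf2, which is needed to load very low density lipoprotein with lipid. Crybb3, a lens crystallin, Phyhd1, a dioxygenase-like protein, Ibtk, an inhibitor of a tyrosine kinase, and Dhrs3, which reduces retinaldehyde to retinol, had 4 each. At Tm6sf2 the 5 regions had ratios of 22.0 to 28.0, all near the threshold. At Crybb3 one region stood out with 72 RXRα reads and no input read (ratio 119).

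The 10 members with the highest ratios were at genes of varied function. Fcna had 353 RXRα reads and 1 input read at its highest bin (ratio 353), with its midpoint at -818 bp from the start (negative is upstream). The uncharacterised 1700052N19Rik had 175 and 0 reads (290), and Repin1, a zinc finger protein, had 281 and 1 (281). Abcb11 had 164 and 0 (272), at -241 bp. Smcr7, a mitochondrial fission factor, had 161 and 0 (267), and Nat8b, an acetyltransferase-family gene, had 151 and 0 (251). Cyp3a25 had 149 and 0 (247), and Nek7, a mitotic kinase, had 132 and 0 (219). Uroc1, the urocanase of histidine breakdown in liver, had 130 and 0 (216), and Grk5, a kinase of G protein-coupled receptors, had 126 and 0 (209). In 8 of these 10 the input bin held no read, and the ratio was then set by the genome mean of the input.

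Promoter members were CpG-rich far more often than the other RXRα regions. Within 250 bp to either side of the midpoint, 2966 members (56.04%) were CpG-rich (at least 50% GC and at least 0.6 times the CpG dinucleotides expected from the base composition), against 4.33% of the regions 1 to 10 kb from a start and 1.55% of those 10 to 100 kb away. By the same measure 47.6% of all gene starts were CpG-rich. A member was found at 3456 of 10654 CpG-rich starts (32.4%, 95% interval 31.6 to 33.3) and at 1365 of 11713 CpG-poor starts (11.7%, 11.1 to 12.2). Starts arranged as divergent pairs, with another gene pointing away within 1 kb, had a member more often (558 of 1599, 34.9%, 32.6 to 37.3) than the others (4263 of 20768, 20.5%, 19.98 to 21.1). Among CpG-rich starts the shares were 35.0% (32.5 to 37.6) for divergent and 32.1% (31.1 to 33.0) for other starts, and these intervals overlap. Among CpG-poor starts they were 34.2% (28.4 to 40.5) for divergent and 11.2% (10.6 to 11.8) for other starts. A region within 1 kb of both starts of a pair counted for each of them. A CpG-poor start could thus be counted through a region nearer to its partner, and how much this added was not tested. Paired starts are not independent, and the intervals do not allow for that. Hadha and Hadhb, which encode both subunits of the mitochondrial trifunctional protein of β-oxidation, are such a pair and shared 1 region with 31 RXRα reads and 1 input read (ratio 31.0).

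The X chromosome had few members. A promoter region was found at 56 of 932 X-linked starts (6.01%), against 17.1% on chromosome 7 to 25.9% on chromosome 4 among the autosomes, and at none of 17 starts on the Y chromosome. Among CpG-rich starts alone the shares were 14.96% (11.2 to 19.7) on the X chromosome and 32.9% (32.01 to 33.8) on the autosomes. Input was lower there too: CpG-rich starts had a median of 7 input reads within 1 kb on the X chromosome and 15 on the autosomes, with 17.6 and 40.8 RXRα reads. The mice were male and carry a single X chromosome, and its part in the lower share was not tested. The highest X-linked members, named after their values were seen, were at Rab9, a small GTPase of endosomal transport (90 RXRα reads and no input read, ratio 149), Aifm1, a mitochondrial flavoprotein (54 and 0, 89.6), and F9, the clotting factor IX made by hepatocytes (41 and 0, 68.0).

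RARα peaks overlapped most promoter RXRα regions. The RARα list played no part in choosing the members. A RARα peak with a score over 20 covered 3551 of 5293 members (67.1%, 65.8 to 68.3), where an overlap counted from 25% of the narrower interval. Over all 42117 RXRα regions the share was 25.1%. It was 24.5% (23.7 to 25.4) in regions 1 to 10 kb from a start, a difference of 42.6 points (41.0 to 44.1), and 18.5% (17.9 to 19.0) in those 10 to 100 kb away. A further 1036 members (19.6%) met only RARα peaks scoring 20 or less, and 706 (13.3%) met none.

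The RARα share went with CpG content and with closeness to the start. It was 82.8% (81.4 to 84.1) in CpG-rich members and 47.1% (45.1 to 49.1) in CpG-poor ones. Promoter regions still had more RARα peaks than regions 1 to 10 kb away of the same kind, by 14.6 points (10.1 to 19.4) in CpG-rich and 24.6 points (22.4 to 26.8) in CpG-poor sequence. By position, the share was 38.0% from 1000 to 500 bp upstream, 72.2% from there to 200 bp upstream, 81.3% from there to 100 bp downstream, 71.4% from there to 500 bp downstream and 41.1% beyond that. The share of CpG-rich members over these intervals was 18.7%, 52.6%, 70.4%, 68.2% and 34.6%.

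**Figure D3:**
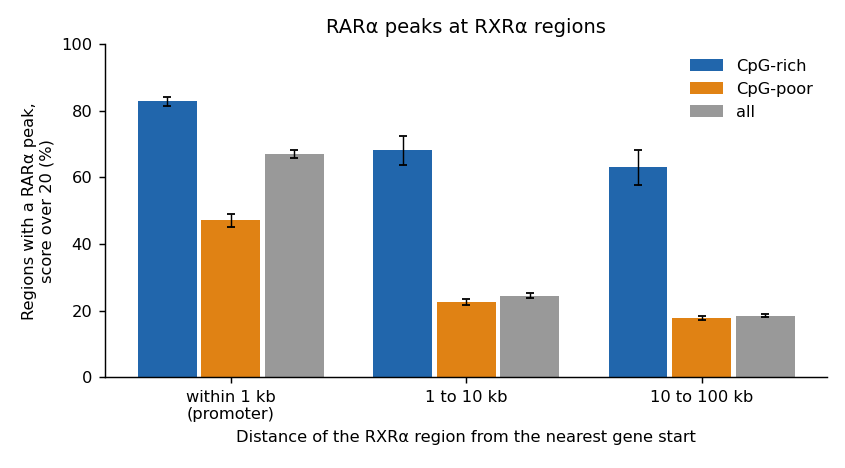
Percent of RXRα regions overlapped by a RARα peak with a score over 20 (y axis) for regions within 1 kb, 1 to 10 kb and 10 to 100 kb of a gene start (x axis), in CpG-rich (blue), CpG-poor (orange) and all regions (grey), with 95% Wilson intervals as bars. At promoters the shares are 82.8%, 47.1% and 67.1%, each above the same kind of region farther away.

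Within the members, all chosen for a ratio of at least 20, the RXRα ratio and the RARα signal showed little relation. This cut limits the range of ratios, so the values cannot tell whether both are related over all starts. In 4 groups of rising RXRα ratio, of 1323 or 1324 members each, the RARα share was 64.8%, 66.9%, 67.5% and 69.2%. Over the 3551 overlapped members the Spearman correlation of RARα score and RXRα ratio was -0.0284, a description across regions of 1 library each that share input depth and base composition. The median RARα score was 47, against 33 over all RARα peaks scoring over 20. The RARα summit lay a median of 93 bp from the bin of highest RXRα ratio and within 100 bp of it in 1872 (52.7%), while the overlapping RARα peaks had a median width of 620 bp.

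Counted by gene, 40.9% of all starts had a RARα summit (score over 20) within 1 kb, and 4033 of 4821 starts with a member did (83.7%, 82.6 to 84.7), against 5107 of 17546 without (29.1%, 28.4 to 29.8). The gap was widest at CpG-poor starts, with 63.4% against 7.34%, a difference of 56.1 points (53.5 to 58.7). At CpG-rich starts it was 91.6% against 60.4%, a difference of 31.2 points (29.8 to 32.7).

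Of the 5 members with the highest RARα scores, all but Cebpa had RXRα ratios below the median of 31.5. Polr2a had a RARα score of 278 with 14 RXRα reads and no input read (ratio 23.2), and Hspa8, the constitutive heat shock chaperone, had 276 with 13 and 0 reads (21.6). Cebpa, a transcription factor of hepatocyte identity, had a score of 268 with 27 and 0 reads (44.8). Gpx1, a selenoprotein that removes peroxides, had 260 with 27 and 1 (26.998), and the poorly known D4Wsu53e had 255 with 22 and 1 (22.0). Of the 706 members that met no RARα peak of any score, the 5 with the highest RXRα ratios were at Smcr7 (161 RXRα reads, no input read, ratio 267), Glt25d2, a collagen galactosyltransferase (104 and 0, 173), Pla2g12a, a secreted phospholipase (100 and 0, 166), Sult2a2, a hydroxysteroid sulfotransferase (90 and 0, 149), and Sox12, a transcription factor (88 and 0, 146).

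Receptor half-sites were more frequent at the members than beside them. Within 100 bp to either side of the highest-ratio bin, searched on both strands, the half-site AGGTCA occurred in 1151 members (21.7%, 20.7 to 22.9). It occurred in 11.4% of the windows centred 600 bp to either side and in 8.90% of windows of the same length at all gene starts. It was less frequent than in RXRα regions 10 to 100 kb away (34.6%), by 12.8 points (11.5 to 14.1). The comparison within CpG-poor sequence left a smaller difference, with 29.1% at promoters and 34.8% at the far regions, and CpG-rich members had 15.9% (14.7 to 17.3).

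Complete pairs of half-sites were rare. A direct repeat with spacing 1 to 5, whose half-sites were AGGTCA or its variants AGTTCA, or GGGTCA, or also GGTTCA, occurred in 71 members (1.34%, 1.06 to 1.69), in 0.482% of the flanking windows, in 0.286% of all gene starts and in 3.24% (3.01 to 3.49) of the regions 10 to 100 kb away. With up to 2 mismatches to a pair of AGGTCA the share was 17.1% (16.1 to 18.2), against 9.51%, 7.69% and 30.2%. Every such pair holds at least 1 half-site or a near match, so these counts overlap with that of the half-site. Of the single spacings under this looser rule, DR1 was the most frequent from 1 to 5, at 6.33% (2.62% in flanks), followed by DR4 at 3.76% (1.99%), DR2 at 3.74% (2.15%), DR3 at 3.38% (2.10%) and DR5 at 3.06% (1.63%). The IR1, as at Abcb11, occurred in 171 members (3.23%, 2.79 to 3.74), in 0.992% of flanks and in 0.706% of all gene starts.

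Motifs of general promoters were common, mainly in CpG-rich members. The GC box GGGCGG occurred in 2218 members (41.9%, 40.6 to 43.2), close to its share of 40.02% at all gene starts and above the 5.14% of the regions 10 to 100 kb away. The ETS core CCGGAAG occurred in 8.46% of members, 9.39% of all gene starts and 1.08% of those far regions. Both were more frequent in CpG-rich members, of which 60.7% held a GC box and 12.9% an ETS core, against 17.9% and 2.75% of the CpG-poor members. The C/EBP motif TTGCNNAA, of a factor family active in hepatocytes, had the reverse order, with 4.69% of CpG-rich and 13.3% of CpG-poor members. The TATAAA box was found in 4.01% of members, fewer than the 8.60% of their flanks.

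**Figure D4:**
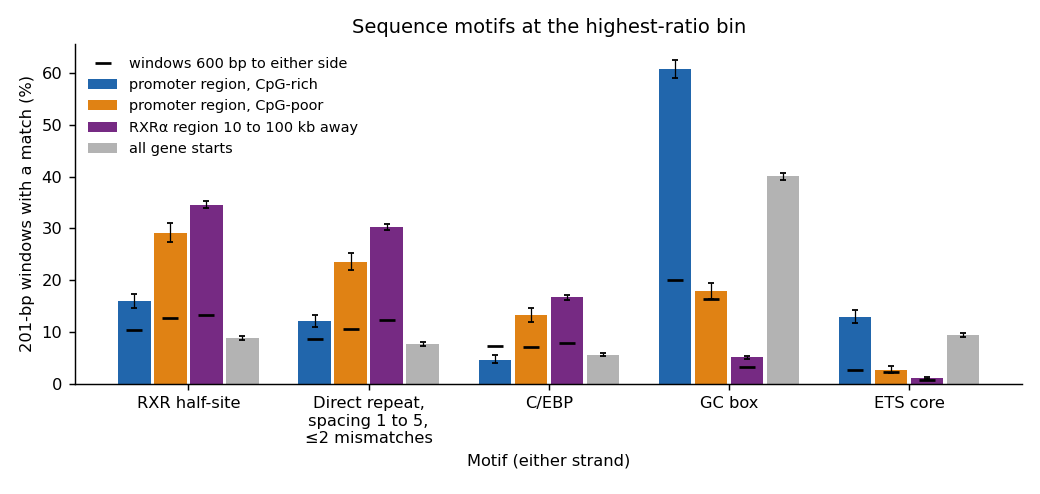
Percent of windows of 100 bp to either side with a motif match on either strand (y axis) for 5 motifs (x axis) at CpG-rich (blue) and CpG-poor (orange) promoter RXRα regions, RXRα regions 10 to 100 kb from a start (purple) and all gene starts (grey), with 95% Wilson intervals. Black dashes mark the windows 600 bp to either side: the RXR half-site exceeds them in each kind of region, and the GC box is at 60.7% in CpG-rich and 17.9% in CpG-poor promoter regions.

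Members with a higher RXRα ratio held the half-site more often, which is a description only, since the ratio also chose the members. The highest of the 4 groups of ratios had the half-site in 31.3% and the lowest in 16.3%, while the GC box fell from 44.1% in the lowest to 34.8% in the highest. The 706 members without any RARα peak had the half-site in 31.6% and the GC box in 12.9%. Those with a RARα peak scoring over 20 had them in 18.6% and 50.6%, differences of 13.0 points (9.40 to 16.7) and 37.7 points (34.6 to 40.5). Regions with RARα were thus richer in the GC box and poorer in the receptor half-site than those without. RARα peaks scoring over 20 covered 82.8% of CpG-rich and 47.1% of CpG-poor members. CpG-rich members held the GC box in 60.7% and the half-site in 15.9%, against 17.9% and 29.1% of CpG-poor members. Whether the differences by RARα hold within CpG-rich or CpG-poor members alone was not tested. A letter match is a description of the sequence and does not show that a factor bound there.

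Genes of bile acid, lipid and plasma protein metabolism had a promoter region more often than the 21.6% of all starts. The lists were compiled with earlier results of these data known and the genes share libraries, so the counts are a description. Of 20 FXR target and bile acid genes 17 had a promoter region, of 32 secreted hepatocyte proteins 27, of 33 PPAR target and fatty acid oxidation genes 26, of 18 hepatocyte transcription factors 13, of 19 clock genes 13 and of 23 LXR target and sterol genes 15. Over 2 kb centred on the start, the ratio of RXRα reads to input reads (the genome mean where input was lower) had a median of 1.37 over all gene symbols, against 6.15 in the bile acid list, 7.46 in the secreted proteins and 6.81 in the PPAR list. When the input over about 1 kb was also counted as background, 11.4% of all starts kept a region, and the counts were 14 of 20, 24 of 32, 23 of 33, 8 of 18 and 7 of 23 for the bile acid, secreted, PPAR, transcription factor and LXR lists.

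**Figure D5:**
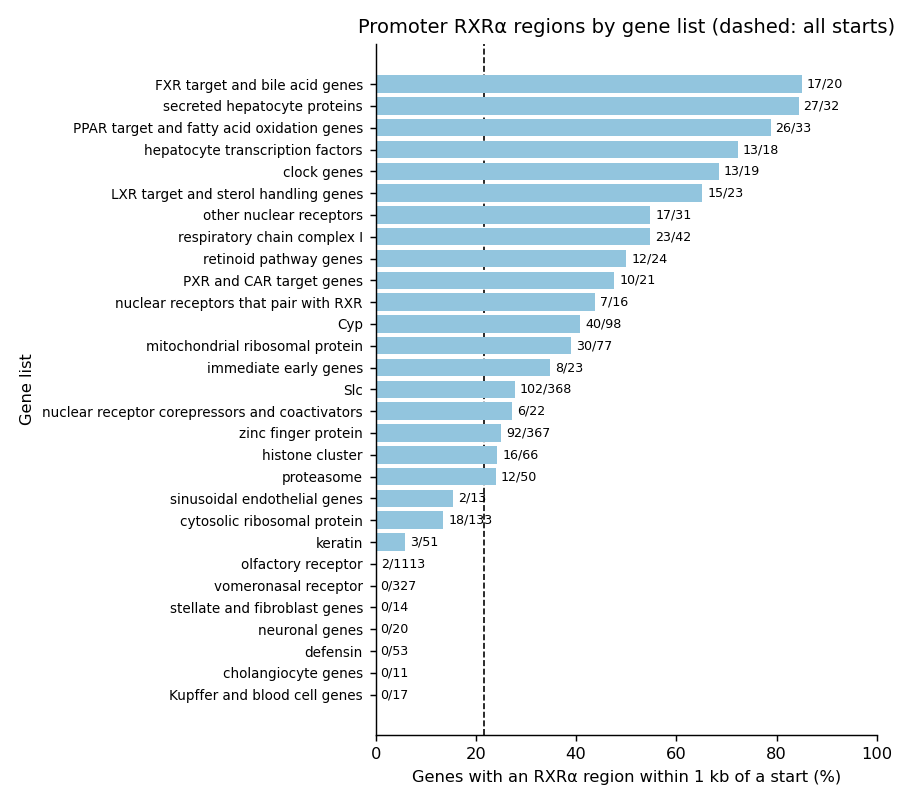
Percent of the genes of each list or symbol family with an RXRα region within 1 kb of a start (x axis), with the counts beside the bars and the 21.6% of all starts as a dashed line. Bile acid, secreted hepatocyte, fatty acid oxidation and hepatocyte transcription factor genes lie between 72.2% and 85.0%, while the Kupffer and blood cell, stellate, cholangiocyte and neuronal lists are at 0.

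The 5 highest ratios of the fatty acid oxidation list were at genes of fatty acid or pyruvate use. Ech1, an isomerase for unsaturated fatty acids, had 118 RXRα reads and no input read (ratio 196), 124 bp upstream of its start. Etfdh, which passes electrons from fatty acid oxidation to ubiquinone, had a ratio of 168 with no input read, and Hsd17b4, a peroxisomal β-oxidation enzyme, had 145 and 1 (145). Pdk4, the kinase that shuts off pyruvate dehydrogenase, had 85 and 0 (141), and Acsl1, which activates long-chain fatty acids, had 81 and 0 (134). The 7 genes without a promoter region were Fgf21, Cyp4a14, Angptl4, Acot2, Creb3l3, Mgll and Pex11a, and all 7 had an RXRα region within 10 kb of the start, as did 4079 of all 17546 starts without a member. At Angptl4, an inhibitor of lipoprotein lipase and well-known PPAR target, the 2 kb around the start held 116 RXRα and 23.4 input reads, where starts with a member had medians of 81 and 17.6.

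Bile acid genes covered synthesis, transport and their control. After Abcb11 came Cyp27a1, which starts the acidic pathway of bile acid synthesis, had 75 and no input read (ratio 124), Apoc3 had 59 and 0 (97.9). Ostb, a subunit of the basolateral bile acid exporter, had 78 and 1 (78.0) and met no RARα peak, and Acox2, a peroxisomal oxidase of bile acid side chains, had 47 and 0 (78.0). Cyp7a1, the rate-limiting enzyme of the classical pathway, had 99 and 2 (49.5), and Nr0b2, which encodes the repressor SHP, had 48 and 1 (47.997). Osta, the partner subunit of Ostb, had 4 RXRα and 2.2 input reads in the 2 kb around its start and no region within 10 kb. Slc10a1, the bile acid uptake transporter, and Baat, which conjugates bile acids, had none at the promoter but a region within 10 kb.

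Among sterol and lipid synthesis genes, Fasn, the fatty acid synthase, had 74 RXRα reads and no input read (ratio 123). Lpcat3, a phospholipid acyltransferase, had 59 and 0 (97.9), Abca1 had 68 and 1 (68.0), and Abcg5, a sterol exporter, had 64 and 1 (64.0). The neighbouring half-transporter gene Abcg8, read from the other strand, had no region within 1 kb of its annotated start, with 3.2 RXRα and 11 input reads in 2 kb. It had a region within 10 kb, and a single start per gene was searched, so any other start of Abcg8 was not covered.

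Secreted plasma proteins are the main product of hepatocytes. The highest of these were Fgb, the fibrinogen β chain (87 RXRα reads and no input read, ratio 144), Serpina1a, an α1-antitrypsin (83 and 0, 138), Serpina1c (75 and 0, 124), Fgg, the fibrinogen γ chain (67 and 0, 111), and Apoc3. Serpina1a and Serpina1c are near-identical copies, so reads may have been split between them. Alb, the albumin gene, had no promoter region although the 2 kb around its start held 141 RXRα reads. Input there was 42.0 reads, above the median of 17.6 at starts with a member.

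Retinoid genes were mixed, with 12 of 24. Cyp26a1 had 51 RXRα reads and no input read (ratio 84.6) with a RARα peak of score 21. Rdh16, a retinol dehydrogenase, had 67 and 1 (67.0), and Rbp4, the plasma retinol carrier, had 32 and 0 (53.1). Rxra itself had 24 and 0 (39.8), 296 bp upstream, and Rxrb had 19 and 0 (31.5). In contrast, the 3 retinoic acid receptor genes had none within 1 kb of their annotated start: Rara held 3 RXRα and 3.4 input reads in the 2 kb around it, Rarb 1 and 8.4, and Rarg 15 and 6.2. Rara and Rarg had a region within 10 kb and Rarb had none. A single start per gene was searched, so other promoters inside these genes were not covered. Of the other retinoid genes without a region, Crabp1, Crabp2, Stra6 and Aldh1a3 had at most 3 RXRα reads in the 2 kb around the start, while Rdh10 had 42.2.

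Of the 16 receptors that pair with RXR, 7 had a promoter region. They were Nr1i2 (PXR), with 51 RXRα reads and no input read (ratio 84.6), Ppara with 46 and 0 (76.3), Nr1i3 (CAR) with 39 and 0 (64.7), Nr4a2 with 62 and 1 (61.996), Nr1h3 (LXRα) with 15 and 0 (24.9), Nr1h4 (FXR) with 23 and 1 (23.0) and Ppard with 13 and 0 (21.6). The 9 without one ranged from 1 RXRα read in 2 kb at Rarb to 76.8 at Thrb. Pparg and Vdr had 5 and 1.2, Nr1h2 (LXRβ) had 35 and Thra had 40.8. PXR and CAR target genes had a region in 10 of 21, with Ces2a, a carboxylesterase, at 120 RXRα reads and 1 input read (ratio 120), Tsku at 54 and 0 (89.6) and Gsta2, a glutathione transferase, at 52 and 0 (86.3). A RARα summit lay within 1 kb of 6 of these 21 genes (28.6%) and of 29 of the 32 secreted proteins (90.6%), where all starts had 40.9%, CpG-rich starts 70.5% and CpG-poor starts 13.9%. The share of CpG-rich starts was 9.52% in the first list and 6.25% in the second. The other nuclear receptors had a region in 17 of 31, led by Nr1d2 (REV-ERBβ) with 71 and 1 reads (ratio 71.0) and Nr2c2 with 39 and 0 (64.7).

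Hepatocyte transcription factors were covered at 13 of 18 genes, among them Foxa2 at 56 RXRα reads and 1 input read (ratio 55.996), Nr5a2 at 31 and 0 (51.4) and Hnf4a at 25 and 0 (41.5). Onecut2, Prox1, Gata4 and Creb3l3 were among those without one. The clock genes were led by Per3 with 61 and 0 (101.2), Gm129 (Ciart, a clock repressor) with 46 and 0 (76.3) and Npas2 with 45 and 0 (74.7), while Per1, Per2, Cry1, Rora, Tef and Hlf had no member. Of 11 genes drawn mostly from those the study discusses, an incomplete list that is no independent evidence, 8 had one: Acsl1, Cyp26a1, Abca1, Rxra, Cyp7b1, Abhd5, Cyp51 and Elovl1, with ratios of 134 down to 21.6. Aldh3a2, Apoa4 and Rara lacked one but had a region within 10 kb. Other genes the study names are not in the list, among them Cyp2c37 and Cyp2c50, which had no promoter region.

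Marker genes of other cells were read against the 21.6% of all starts and the 11.7% of CpG-poor starts with a promoter region. None of 17 Kupffer and blood cell genes, 14 stellate and fibroblast genes, 11 cholangiocyte genes and 20 neuronal genes had one. Of 13 sinusoidal endothelial genes, Tie1, an endothelial receptor kinase, had one with 72 RXRα reads and no input read (ratio 119), and Fcgr2b, an Fc receptor, had one with 24 and 1 (24.0). That share, 15.4% (4.33 to 42.2), was near both backgrounds. The Kupffer and blood cell list held no CpG-rich start, and its count of 0 allows a share of up to 18.4% (upper Wilson limit), which includes the CpG-poor background. The limits of the stellate, cholangiocyte and neuronal lists were 21.5%, 25.9% and 16.1%. These include the CpG-poor background too, and the cholangiocyte limit also includes that of all starts. The counts of 0 therefore do not set these short lists apart from CpG-poor starts. However, most starts of the neuronal list were CpG-rich, beside 42.9% in the stellate and 27.3% in the cholangiocyte list. The neuronal limit of 16.1% lay below the 21.6% of all starts and the 32.4% of CpG-rich starts. The neuronal share was thus lower than both of these backgrounds, and the cause was not tested. Against the genome mean of the input alone, 2 of the 11 cholangiocyte and 1 of the 20 neuronal genes had a region. The defining Kupffer gene Clec4f held 3 RXRα and 3 input reads in 2 kb, and Ptprc, the pan-leukocyte marker CD45, held 3 and 8.8. Among large families, 2 of 1113 olfactory receptors, none of 327 vomeronasal receptors, none of 53 defensins and 3 of 51 keratins had one. The 3 keratins, named after their values were seen, were Krt8 (44 and 1 reads, ratio 44.0), Krt18 (27 and 0, 44.8) and Krt4 (31 and 1, 31.0), the first pair being the keratins of hepatocytes.

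Housekeeping families, taken by the start of the gene symbol, differed among themselves. Complex I of the respiratory chain had a promoter region at 23 of 42 genes (54.8%, 39.9 to 68.8). Mitochondrial ribosomal proteins had one at 30 of 77 (39.0%, 28.8 to 50.1). The proteasome had one at 12 of 50 (24.0%, 14.3 to 37.4). Symbols starting with Rpl or Rps, taken as cytosolic ribosomal proteins, had one at 18 of 133 (13.5%, 8.74 to 20.4). Whether each of these symbols is a working ribosomal protein gene was not checked, so their share may not be that of the ribosomal proteins proper. The share was 21.6% of all starts and 32.4% of CpG-rich starts. Starts were CpG-rich in 88.1% of the complex I and 85.7% of the mitochondrial ribosomal genes. The intervals of the mitochondrial ribosomal and proteasome genes include the 32.4%. RARα summits were found at 41 of the 50 proteasome genes (82.0%, with 84.0% of the starts CpG-rich) and 76 of the 133 ribosomal protein symbols (57.1%, with 56.4%), beside 40.9% of all starts and 70.5% of CpG-rich starts. The immediate early genes had a region in 8 of 23, with Fos at 52 RXRα reads and no input read (ratio 86.3), and a RARα summit in 18. The Cyp family of P450 enzymes had a region in 40 of 98, the Slc transporters in 102 of 368, the zinc finger (Zfp) genes in 92 of 367, the histone genes in 16 of 66 and the nuclear receptor coregulators in 6 of 22. Starts were CpG-rich in 95.7% of the immediate early genes and 90.9% of the coregulators. Their shares with a region, 34.8% and 27.3%, were near the 32.4% of CpG-rich starts.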

How the data were processed

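Chromatin from mouse liver was profiled by ChIP-seq with 1 library per antibody. According to the submitters' processing notes, reads were processed with CASAVA 1.4 and Bowtie, and RARα peaks were called with MACS. The processing notes and the track header name build mm9, whereas the study's methods name another build for alignment. The authors deposited the RXRα and input tracks as coverage signal, whole-number extended reads per 32-bp bin, with 9999939 and 9999292 reads, and a RARα peak list with a peak score whose unit is not given in the sources used here. The deposited list also holds a false discovery rate in percent, which was not used.

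Regions were rebuilt from the tracks after scaling RXRα to the input mean, and placed by GENCODE M1 gene starts. RARα overlap required 25% of the narrower interval. CpG content was taken within 250 bp and motifs within 100 bp to either side, the motifs on both strands. Named genes were the 10 highest ratios, the 5 genes with most regions, the highest of each list, 11 genes drawn mostly from those the study discusses, the extremes of RARα score and those at the threshold. Older symbols were matched for 7 genes through a RefSeq table. Hmgcs1 and Cebpd were not matched, and kinases and other genes that only share a family prefix were dropped. The members and lists were chosen with earlier results of these data known. Scripts were tested on simulated data and used Python 3.11.15, numpy 2.4.6, pandas 2.3.3, scipy 1.17.1 and matplotlib 3.10.9. Other thresholds, backgrounds, joins, distances, overlaps and motif rules were tried. Some members of the lists are counted but not reported by name here.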

Additional observations from a re-analysis of the deposited data

How the results depend on the processing

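Of 70 alternatives, 32 moved a value by less than its 95% interval or, for a count, by less than 1.5 times. The number of promoter regions (5293) was 11595 at 10 times input, 2814 at 30 times, 8772 against the genome mean of the input alone, 2608 with the input over about 1 kb and 2262 with 1 read added to the input, a setting chosen after the data were seen. The starts with a member (4821) became 9117, 2711, 7737, 2545 and 2196 in the same order. Promoter regions as a percent of all regions (12.6) were 13.2 at 10 times, 13.5 at 15 times, 11.6 at 25 times, 10.9 at 30 times, 14.4 with the genome mean, 9.64 with the 1 kb input, 12.1 with bins joined within 500 bp, 9.16 within 500 bp of a start, 17.0 within 2 kb, 15.2 with the start of any transcript and 10.5 with the added read. The percent overlapped by RARα (67.1) was 61.9 at 10 times, 65.8 at 15 times, 70.9 with the genome mean, 63.7 with the 1 kb input, 69.0 with the 500 bp join, 77.2 within 500 bp, 58.0 within 2 kb, 63.5 with any transcript, 86.7 with peaks of any score, 30.3 with scores over 50 and 65.7 with 50% overlap. The difference to regions 1 to 10 kb away stayed between 39.2 and 46.1 points over the 9 alternatives of region calling for which it was computed. The percent with a direct repeat (1.34) was 1.04 at 10 times, 1.74 at 30 times, 0.907 in the narrower of the windows tried, 0.113 with AGGTCA alone, 2.42 with spacings 0 to 8 and 17.1 with up to 2 mismatches, a rule added after the data were seen. The cause of these moves was not tested, beyond what a looser or stricter rule does by construction.

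No paired analysis was possible because each group holds 1 library. The highest bin of a member held a median of 23 RXRα reads and mostly no input read, so ratios are coarse, and a difference of a few reads decides membership near the threshold.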

Other observations

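Some genes had both a promoter region and a more distant RXRα region. Of the 4421 genes nearest to a member, 2243 were also the nearest to an RXRα region 1 to 10 kb from the start. The same share over all starts was not computed. Of the starts without a member, 4079 of 17546 had a region within 10 kb, a wider measure that does not require the nearest start. Among the 17546 starts without a member, 262 had a higher ratio of RXRα to input reads over 2 kb than the median start with one (4.82).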
